A study of Mus musculus with 6 samples.

Results

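Fibroblasts (FBs) taken back out of co-culture with immature cardiomyocytes (imCMs) were compared by the age of the heart they came from, adult (AFs) or neonatal (NFs). They came from the single-cell library labelled fibroblasts, in which cells were dispensed into the nanowells of an ICELL8 chip, 1 cell per well, and transcripts were counted by unique molecular identifiers (UMIs). The wells of 4 Type values in the well report were used, AF1, AF2, NF1 and NF2. A well was kept if it had at least 500 genes other than mitochondrial genes and if the UMIs of 6 fibroblast genes (Col1a1, Col1a2, Col3a1, Dcn, Postn and Lum) together outnumbered those of 5 cardiomyocyte genes (Tnnt2, Tnni3, Myh6, Actc1 and Tnnc1). This left 439 of the 514 wells with counts under these Types, out of 2482 wells with counts in both single-cell libraries of the series. The kept wells numbered 124 in AF1, 115 in AF2, 126 in NF1 and 74 in NF2. The mice were C57BL/6 in the labels and C57BL/6J in the study's methods. Per the study's methods, FBs were isolated from the left ventricles of newborn or adult mice, passaged several times, and plated under freshly isolated newborn imCMs in medium with serum, with more AFs than NFs per imCM, before the dyed cells were sorted by FACS and dispensed. The question of the comparison was how FBs of the 2 ages differ while they share a dish with imCMs. It cannot separate age from what passaging or plating density did to each population.

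Cardiac FBs make and remodel the collagenous matrix of the heart and send secreted signals to cardiomyocytes. They are also sentinel cells. Type I interferons and interferon gamma induce in them a shared set of antiviral, GTPase and antigen-presenting genes, while inflammatory cytokines induce acute-phase proteins, complement components and chemokines that call neutrophils and monocytes.

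The 4 Types differed in depth and in content before any single gene was considered. UMI sums over the kept wells were 5967037 in AF1, 7632463 in AF2, 3500321 in NF1 and 2647039 in NF2, with medians per well of 29120, 42986, 14664 and 25247. The median share of mitochondrial UMIs was 5.31% and 4.69% in the AF Types and 7.79% and 7.72% in the NF Types. The marker rule set aside 5 and 1 wells of AF1 and AF2 but 41 and 20 wells of NF1 and NF2. The kept wells nearest the threshold had fibroblast to cardiomyocyte UMI ratios of 1.13, 1.24, 1.13 and 1.01 in AF1, AF2, NF1 and NF2, and the nearest wells set aside 0.889, 0.510, 1 and 1. Kept wells within 2-fold of the threshold numbered 3, 1, 28 and 22 in the same order. Wells set aside within 2-fold numbered 3, 1, 21 and 12, so the rule cut mainly through NF wells. In the wells that stayed, the 5 cardiomyocyte genes still summed to 670 and 1311 CPM (UMI counts scaled to a common total, the usual counts-per-library-size unit) in NF1 and NF2, against 93.01 and 74.3 CPM in AF1 and AF2. Cardiomyocyte RNA thus moved with the age of the FBs. The 12 endothelial markers summed to 439 and 351 CPM in AF wells and 334 and 261 CPM in NF wells. The 12 macrophage and leukocyte markers spanned 39.2 to 639 CPM with no order by age. AF1, AF2, NF1 and NF2 each had a source well and a dispense order of their own on 1 chip, NFs first, so that dispense order and age cannot be told apart. What separates 1 and 2 within an age is not stated, so the p-values below measure the spread between these sums, which may be technical. A comparison of 2 against 2 sums cannot go below p = 0.333 in an exact two-sided permutation test, and tests were therefore fitted across all genes (edgeR quasi-likelihood, Benjamini-Hochberg adjustment). Genes with an adjusted p below 0.05 and a log2 fold change beyond 0.58 in either direction are referred to as called.

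Of 12216 genes tested, 93 were called (0.761%), 81 of them higher in AFs (0.663% of tested genes) and 12 lower (0.0982%). The 81 higher genes included 9 of the interferon list and 6 of the acute-phase list, and the 12 lower ones held 2 cardiomyocyte genes together with the calcium-binding protein gene S100a4, the macrophage growth factor gene Csf1 and the sterol synthesis gene Fdps. At an unadjusted p under 0.05 there were 1689 genes (13.8%). Values of the 2 ages did not overlap for 23.1% of all tested genes in the direction of AFs and for 21.3% in the direction of NFs, so that non-overlap alone was common. A gene nearly absent from 1 age could pass the expression filter only through the other age, which set its direction. The test had little power for small changes. Among 200 genes simulated with a 1-unit log2 change it recovered 10, and among 200 with a 2-unit change 91, with 3 and 6 false calls. DESeq2 recovered 25 and 103 with 12 and 18 false calls, and limma-voom 11 and 79 with 1 and 4.

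**Figure D1:**
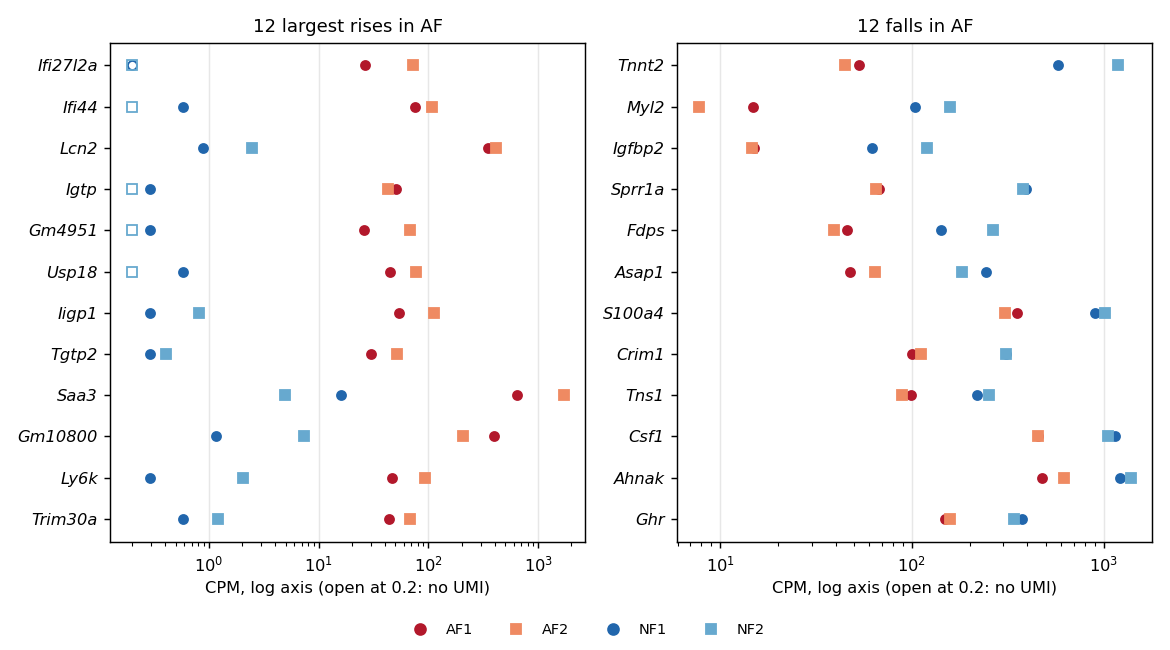
CPM (log axis) in AF1, AF2, NF1 and NF2 of the 12 called genes with the largest rise in AFs among those with a mean of at least 20 CPM and a UMI in at least 20 wells (left) and of the 12 called genes that fell (right), 1 point per Type, with open points at 0.2 for a Type with no UMI. In both panels the AF and NF points do not overlap, and the rises span a far wider range than the falls.

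Interferon-inducible genes were among the called genes higher in AFs. Of 34 genes in the interferon list 30 were tested, 9 were called higher and none lower, against 0.663% of all genes. That number was 22 with DESeq2, 2 with limma-voom, 2 in wells with little cardiomyocyte RNA and 8 with no marker rule for wells. It was 16 with a minimum mean of 20 CPM and 19 in thinned wells, with none lower in any of these settings. The median log2 fold change over the 30 was 4.04 (3.99 with the 2 genes without a UMI in NFs set to their lower bound), against 0.0019 over all genes. With 1 Type left out the median ranged from 3.67 (without AF2) to 4.34 (without NF1). For 29 of 30 genes every AF value lay above every NF value, against 23.1% of all genes. Members nearly absent from NFs were tested only through their AF sums, so these counts are a description and no test. Ifi44, an interferon-induced gene (ENSMUSG00000028037, chr3:151730922-151749960), had 75.5 and 107 CPM in AF1 and AF2, 0.585 CPM in NF1 and no UMI in NF2. With 2 UMIs in NFs against 465 and 857 in AF1 and AF2, the ratio of its shares was 299 (counting interval 82.6 to 2470). Usp18, which encodes the protease that removes ISG15 and restrains interferon signalling, had 45.0 and 76.9 CPM in AFs, 0.585 CPM in NF1 and no UMI in NF2. Trim30a rose from 0.585 and 1.22 CPM in NFs to 43.3 and 68.0 CPM in AFs, a log2 fold change of 5.97 ± 0.63 (SE, adjusted p = 0.0090). Xaf1, an interferon-induced apoptosis factor gene, stood at 210 and 166 CPM in AFs and 3.51 and 4.08 CPM in NFs (log2 fold change 5.63 ± 0.35, adjusted p = 0.0015). The nucleic acid sensor gene Zbp1 had 70.5 and 79.8 CPM in AFs, 3.22 CPM in NF1 and none in NF2 (log2 fold change 5.38 ± 0.81, adjusted p = 0.031). In each of these genes both AF Types were high and both NF Types near or at 0.

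Igtp, Iigp1, Tgtp2 and Gm4951, which encode GTPases of the interferon-inducible kind that act on intracellular pathogens, were named for their rank among the 12 rises plotted. No list held them, and nothing was tested for the family. Igtp (chr11:58199556-58207591) had 50.3 and 42.7 CPM in AFs and a single UMI in NFs. Iigp1 had 53.7 and 112 CPM in AFs and 3 UMIs in NFs, a ratio of 185 (counting interval 63.1 to 898). Tgtp2 had 30.0 and 51.6 CPM in AFs and 2 UMIs in NFs, and the related Gm4951 25.7 and 67.1 CPM and 1 UMI. Members of this family are similar in sequence, and Igtp overlaps Irgm2 on its own strand, so reads may be split between them. Ifi27l2a had 26.3 and 72.7 CPM in AFs and no UMI in NFs, at least 112-fold higher against a floor of 3 counts over both NF Types. The proteasome subunit gene Psmb9, which overlaps Tap1 on the opposite strand, had 15.6 and 21.7 CPM and no UMI in NFs, at least 40.5-fold higher against the same floor. The restriction factor gene Ifitm3, chosen after its values were seen because it is abundant, rose from 627 and 729 CPM in NFs to 3433 and 4064 CPM in AFs (log2 fold change 2.47 ± 0.19, adjusted p = 0.0049).

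The starts of several of these genes carry a run of letters in common. The interferon-stimulated response element was searched as GAAA, any 2 bases and GAAA again on either strand of the 250 bases before each annotated start (RefSeq, GRCm38.p6). Of the 30 tested interferon list genes 21 matched a promoter by symbol, and 9 of the 21 held the letters (42.9%), against 2.98% of 32851 windows and 3.18% of the 8452 tested genes that matched. The list was made up of interferon-inducible genes, so this share describes the list and is no result about AFs. Among called genes with a matched promoter the letters stood in 14 of 51 higher genes and in 0 of 10 lower genes. The 14 also include Saa3, Spp1 and Mfap2, which belong to other lists. A match describes the sequence and is no evidence of a bound factor. The stretches of 80 bases around the match in Igtp, Tgtp2, Trim30a, Ifit3, Gbp2 and Bst2, all called higher in AFs, are shown 5′ to 3′ on the strand of the gene to let the spacing and the variants of the element be compared, with the matched letters in capitals.
Igtp (chr11:58199476-58199555, plus strand): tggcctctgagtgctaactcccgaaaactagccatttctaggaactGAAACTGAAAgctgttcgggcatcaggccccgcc
Tgtp2 (chr11:49064238-49064317, minus strand): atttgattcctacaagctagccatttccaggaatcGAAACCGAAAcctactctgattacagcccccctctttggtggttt
Trim30a (chr7:104465194-104465273, minus strand): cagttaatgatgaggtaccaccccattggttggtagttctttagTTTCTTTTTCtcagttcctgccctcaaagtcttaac
Ifit3 (chr19:34583338-34583417, plus strand): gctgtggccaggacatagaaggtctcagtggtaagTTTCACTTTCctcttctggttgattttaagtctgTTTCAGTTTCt
Gbp2 (chr3:142620569-142620648, plus strand): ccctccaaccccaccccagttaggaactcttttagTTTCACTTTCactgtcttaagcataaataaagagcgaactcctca
Bst2 (chr8:71537558-71537637, minus strand): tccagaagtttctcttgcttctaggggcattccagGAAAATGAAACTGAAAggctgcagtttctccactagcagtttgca

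In Igtp and Tgtp2 the match lay on the gene's own strand, 34 and 70 bases before the start, within otherwise similar surroundings. Trim30a and Gbp2 held it on the other strand, 36 and 59 bases before the start. Ifit3 and Bst2 held 2 matches each, and the 2 in Bst2 overlap. Ifit3, an interferon-induced RNA-binding protein gene, had 78.9 and 114 CPM in AFs and 4.68 and 4.49 CPM in NFs. Gbp2 had 47.2 and 49.1 CPM against 2.63 and 3.67 CPM, and the virion tether gene Bst2 83.1 and 104 CPM against 16.1 and 9.39 CPM.

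Acute-phase and complement genes formed the next group. Of 20 list genes 12 were tested, 6 were called higher and none lower, against 0.663% of all genes called higher. That number was 10 with DESeq2, 9 in thinned wells, 3 with limma-voom and 3 in wells with little cardiomyocyte RNA, with none lower in any of these. The median log2 fold change was 3.44. For all 12 the AF values lay above the NF values, against 23.1% of all genes. The same limit of the filter holds here. Lcn2, which encodes the iron-siderophore binding protein lipocalin 2 (ENSMUSG00000026822, chr2:32384633-32388252), had 347 and 413 CPM in AFs and 0.878 and 2.45 CPM in NFs. Its log2 fold change of 7.91 ± 0.41 had the smallest adjusted p of the genes named here (0.00084). Saa3, the serum amyloid A gene made outside the liver (chr7:46711998-46715700), had 633 and 1709 CPM in AFs and 16.1 and 4.90 CPM in NFs (log2 fold change 6.74 ± 0.66, adjusted p = 0.0073). A single well held 54.0% of its UMIs in AF1 and 62.6% in AF2. Without the top well of each Type, 291 and 638 CPM remained in AFs and 2.63 and 2.45 CPM in NFs. The complement component gene C3 had 48.1 and 51.5 CPM in AFs and 0.878 and 2.86 CPM in NFs (log2 fold change 4.79 ± 0.63, adjusted p = 0.018). The cytokine gene Il6 stood at 169 and 79.3 CPM against 8.49 and 6.94 CPM (log2 fold change 3.996 ± 0.47, adjusted p = 0.012). Serping1, the C1 inhibitor gene, stood at 234 and 316 CPM against 48.0 and 51.4 CPM (log2 fold change 2.47 ± 0.25, adjusted p = 0.0080). These are the same wells as those of the interferon genes, but within a Type the summed UMIs of the 2 lists hardly moved together from well to well (Spearman's rho between -0.08 and 0.16, a description over 74 to 126 wells that share their depth).

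**Figure D2:**
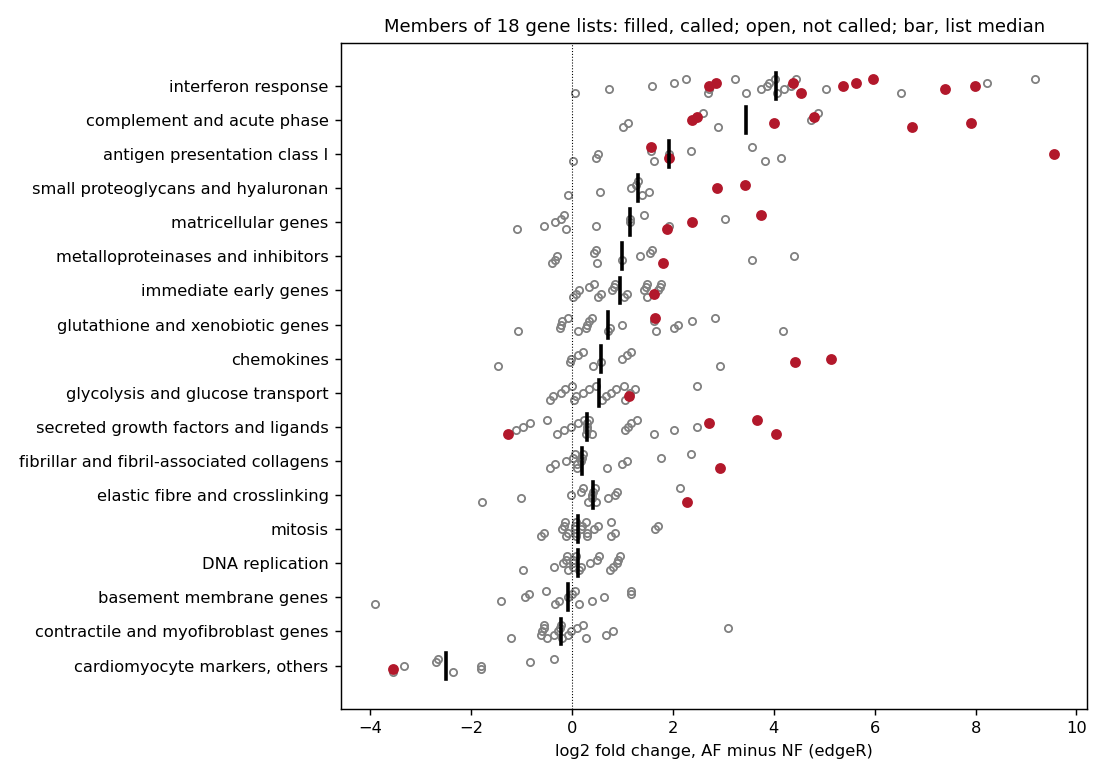
Log2 fold changes (AF minus NF) of the tested members of 18 gene lists, 1 point per gene, filled where called, with the list median as a bar. The interferon, acute-phase and class I lists sit to the right of 0, with medians of 4.04, 3.44 and 1.92, and the cardiomyocyte list sits to the left with a median of -2.50.

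Of 13 class I antigen presentation genes tested, 3 were called higher and none lower, against 0.663% of all genes called higher. The median log2 fold change was 1.92. B2m, the light chain of class I molecules, had 2788 and 3322 CPM in AFs and 1163 and 893 CPM in NFs (log2 fold change 1.57 ± 0.21, adjusted p = 0.017). The heavy chain gene H2-D1, whose reads can be shared with other class I genes, stood at 180 and 253 CPM against 61.5 and 52.6 CPM (1.92 ± 0.27, adjusted p = 0.023). Without AF2 none of the 12 genes then tested in this list was called, with a median of 1.53.

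How widely the wells shared these differences was read from the UMIs of each list per 10000 UMIs of a well. The median well carried 11.5 and 17.5 interferon list UMIs per 10000 in AF1 and AF2 but 0.978 and 1.23 in NF1 and NF2. The 25th percentiles of 6.06 and 10.8 in AFs lay above the 75th percentiles of 2.42 and 2.11 in NFs. After each well was thinned to 10000 UMIs, with shallower wells left out (30 of AFs, 62 of NFs), an interferon list UMI was present in 104 of 104 and 105 of 105 AF wells, and in 67.5% of 80 and 69.0% of 58 NF wells. For the acute-phase list the median was 10.03 and 10.8 per 10000 in AFs and 0.657 and 1.47 in NFs, and the highest single well reached 302 in AF1 and 514 in AF2. Its AF 25th percentiles of 5.72 and 6.07 also lay above the NF 75th percentiles of 2.72 and 3.75. The class I list had medians of 29.7 and 35.4 in AFs and 12.9 and 10.1 in NFs, with AF 25th percentiles of 19.5 and 27.0 above NF 75th percentiles of 18.7 and 14.5. Interferon list UMIs were thus spread over the AF wells, with at most 7.38% of an AF Type's list UMIs in 1 well, whereas 1 well held 18.6% and 35.1% of the acute-phase UMIs of AF1 and AF2.

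**Figure D3:**
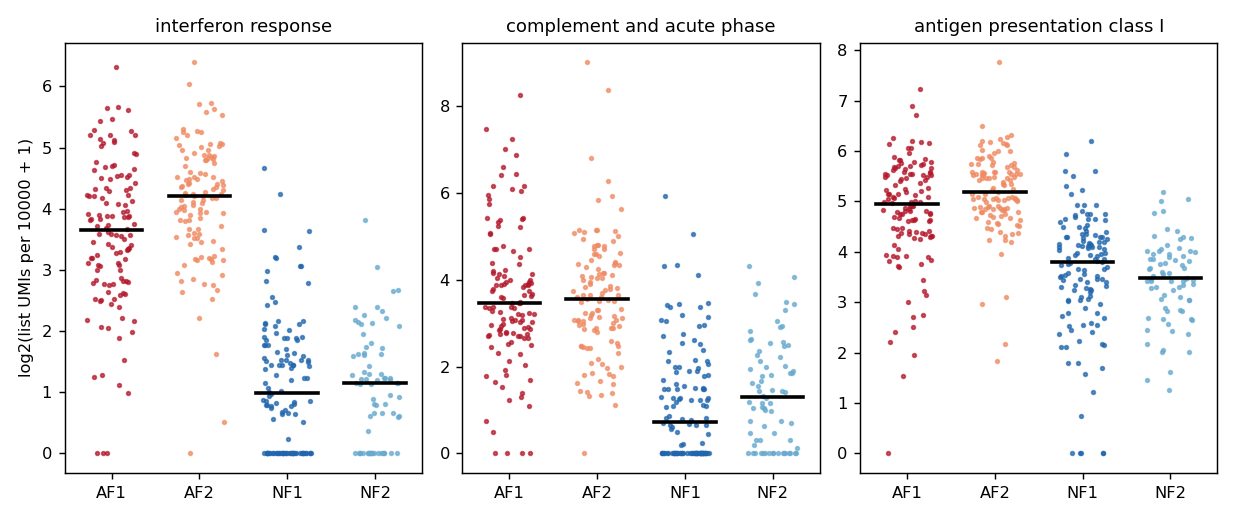
UMIs of 3 gene lists per 10000 UMIs in each kept well, on a log2 scale after adding 1, by Type, with the median well as a bar. In the interferon panel the AF medians of 11.5 and 17.5 lie above the NF 75th percentiles of 2.42 and 2.11. The acute-phase panel has AF medians of 10.03 and 10.8 and a few AF wells far above the rest, and in the class I panel the AF 25th percentiles of 19.5 and 27.0 lie above the NF 75th percentiles of 18.7 and 14.5.

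Single genes differed in how many wells they reached. At the thinned depth Cxcl5 had a UMI in 89.4% and 93.3% of AF wells and in 16.3% and 44.8% of NF wells. Lcn2 was present in 51.9% and 49.5% of AF wells and in 0% and 3.45% of NF wells, and Saa3 in 26.9% and 24.8% against 6.25% and 3.45%. Gm10800, a predicted gene at chr2:98666547-98667301 in the list of largest rises, rested on few wells. It had 393 and 205 CPM in AFs and 1.17 and 7.35 CPM in NFs, but 1 well held 78.1% of its UMIs in AF1 and 62.6% in AF2, and only 29 of the 439 wells had any. Ly6k, of the Ly6 family of surface proteins, had 46.8 and 93.6 CPM in AFs and 0.293 and 2.04 CPM in NFs, in 11.5% and 18.1% of thinned AF wells.

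Among chemokines 2 of 13 tested were called, both higher, against 0.663% of all genes. AF values lay above NF values for 7 of the 13, against 23.1% of all genes, and 7 had an unadjusted p under 0.05, against 13.8%. DESeq2 called 5 higher and 1 lower, limma-voom 1 higher, and edgeR with a minimum mean of 20 CPM 4 higher. The neutrophil attractant gene Cxcl5 rose from 67.04 and 155 CPM in NFs to 1975 and 2752 CPM in AFs (log2 fold change 4.42 ± 0.41, adjusted p = 0.0057), and the monocyte attractant gene Ccl8 from 1.76 and 11.8 to 120 and 328 CPM (5.13 ± 0.79, adjusted p = 0.033), with 74.9% of the AF1 UMIs of Ccl8 in 1 well. Ccl2, the most abundant gene of the list, had 14706 and 14427 CPM in AFs and 15908 and 13990 CPM in NFs (log2 fold change -0.04 ± 0.16), a difference whose sign changed with the scaling. Ccl7 had 6586 and 5839 CPM against 4338 and 3982 CPM and was not called (adjusted p = 0.17).

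Matrix genes moved unevenly. The well rule itself used 6 of them, and their values are therefore a description of the wells chosen. Dcn, the small proteoglycan decorin, had 1097 and 1549 CPM in AFs and 73.8 and 173 CPM in NFs, Col3a1 623 and 1102 against 66.5 and 160 CPM, and Lum, lumican, 98.1 and 82.4 against 7.90 and 17.1 CPM. Col1a1 had 2553 and 3312 against 1086 and 1680 CPM and Col1a2 1366 and 2037 against 679 and 1025 CPM, neither called. Postn, periostin, ran the other way, with 240 and 345 CPM in AFs and 480 and 775 CPM in NFs, also not called. With no marker rule, over all wells with 500 genes, the log2 fold changes were 3.59 for Dcn, 2.91 for Col3a1 and -1.01 for Postn.

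In the collagen list, which holds the rule genes Col1a1, Col1a2 and Col3a1, only Col3a1 was called of 16 tested, so that no collagen outside the rule was, and the list median was 0.19. The matricellular list had 3 of 15 called higher, against 0.663% of all genes, and none of them was a rule gene. The same share applies to the lists that follow, with 13.8% of all genes at an unadjusted p under 0.05. Spp1, osteopontin, had 344 and 105 CPM in AFs and 21.4 and 11.8 CPM in NFs (3.74 ± 0.59, adjusted p = 0.037), with 76.4% of its AF1 UMIs in 1 well. Ccn5 had 59.3 and 84.9 against 12.6 and 15.1 CPM, and Cthrc1, a collagen triple helix repeat protein gene of activated FBs, 319 and 381 against 85.2 and 106 CPM (1.87 ± 0.23, adjusted p = 0.014). The microfibril gene Mfap2 was the called gene of 16 in the elastic fibre list, with 70.9 and 91.3 CPM in AFs and 17.3 and 16.3 CPM in NFs. Of 13 metalloproteinase and inhibitor genes 1 was called, Timp1, which had 2872 and 2538 CPM in AFs and 974.5 and 573 CPM in NFs (1.81 ± 0.27, adjusted p = 0.027). The stromelysin gene Mmp3 had 243 and 459 CPM against 2.93 and 31.8 CPM without being called (adjusted p = 0.068). None of 15 basement membrane genes was called by edgeR (median -0.07, 5 at an unadjusted p under 0.05), while DESeq2 called 1 higher and 2 lower and edgeR without NF1 called 1 lower, with Sparc at 1938 and 2234 against 1446 and 1729 CPM and Col4a1 at 929 and 1151 against 1379 and 1601 CPM. None of 19 contractile and myofibroblast genes was called by edgeR either (median -0.21, 5 at an unadjusted p under 0.05), and DESeq2 called 1, higher. Acta2, smooth muscle actin and the usual mark of myofibroblasts, had 1312 and 1285 CPM in AFs and 1459 and 1512 CPM in NFs (-0.19 ± 0.17, adjusted p = 0.70), and its sign changed to 0.043 in wells with little cardiomyocyte RNA.

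Secreted factors differed in both directions. Of 26 growth factor genes 3 were called higher and 1 lower, against 0.663% and 0.0982% of all genes. The share of all genes at an unadjusted p under 0.05 was 13.8%. The epithelial growth factor gene Fgf7 had 67.7 and 83.9 CPM in AFs and 2.93 and 6.53 CPM in NFs (4.04 ± 0.49, adjusted p = 0.013). Mdk, the heparin-binding growth factor midkine, stood at 328 and 247 CPM against 33.7 and 54.3 CPM (2.72 ± 0.31, adjusted p = 0.011), and the Wnt agonist gene Rspo3 at 35.1 and 39.0 against 2.93 and 2.86 CPM. The Wnt antagonist gene Frzb, the called gene of 9 in the Wnt list, stood at 93.5 and 141 against 9.95 and 19.2 CPM. Csf1 was the gene that fell, with 453 and 456 CPM in AFs and 1142 and 1060 CPM in NFs (-1.28 ± 0.18, adjusted p = 0.022). None of 21 TGF-beta and BMP genes was called by edgeR (9 at an unadjusted p under 0.05), while DESeq2 called 4 higher and 2 lower, and edgeR called 3 higher with the CPM minimum and 3 higher and 1 lower in thinned wells. Among 11 genes of the insulin-like growth factor system Igfbp2 was called, lower in AFs at 15.1 and 14.7 CPM against 61.8 and 120 CPM (-2.61 ± 0.41, adjusted p = 0.035).

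The 12 genes lower in AFs were led by Tnnt2 and Myl2, cardiac troponin T and ventricular myosin light chain. Tnnt2, one of the genes of the well rule, had 52.9 and 44.8 CPM in AFs and 580 and 1185 CPM in NFs, and Myl2 14.8 and 7.77 against 104 and 158 CPM. Of the 5 rule genes and 10 further cardiomyocyte genes tested, all had a negative log2 fold change and 1 in each list was called, with medians of -2.51 and -2.50. The other 10 are not known as cardiomyocyte identity genes. S100a4, also called fibroblast-specific protein, had 353 and 305 CPM in AFs and 907 and 1016 CPM in NFs (-1.55 ± 0.19, adjusted p = 0.014). Sprr1a, a small proline-rich protein gene, had 67.1 and 65.1 CPM in AFs and 395 and 382 CPM in NFs (-2.55 ± 0.21, adjusted p = 0.0049), with 71.5% of the AF2 UMIs in 1 well. Fdps, which makes farnesyl diphosphate on the way to cholesterol, had 45.9 and 39.2 against 142 and 265 CPM. The others were Asap1 and Tns1, which act at adhesions, the membrane genes Crim1 and Ghr, the growth hormone receptor, and the giant scaffold gene Ahnak, with log2 fold changes between -1.93 and -1.21. Because cardiomyocyte RNA was higher in NFs, the comparison was repeated in wells whose fibroblast sum was over 10 times the cardiomyocyte sum. That left 117 and 109 wells of AF1 and AF2 but 33 and 11 wells of NF1 and NF2, and moved the median of all genes to 0.17. There 20 genes were called, all higher in AFs, among them Lcn2, Saa3, Cxcl5, Ifitm3 and Xaf1. None of the 12 lower genes was called, although each kept its sign, with S100a4 at -1.83 and Csf1 at -1.53. The part of cardiomyocyte RNA in these 12 was not tested further.

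With edgeR none of 20 DNA replication and 24 mitosis genes was called, with medians of 0.11 and 0.13 and with 3 and 5 genes at an unadjusted p under 0.05. DESeq2 called 1 of the first list, higher, and 0 of the second. Over all genes 13.8% had an unadjusted p under 0.05 with edgeR and 0.663% were called higher. Wells with over 0.2% of their UMIs in mitosis genes made up 33.9% (95% exact binomial interval 25.6 to 42.9) of AF1, 38.3% (29.4 to 47.8) of AF2, 31.7% (23.7 to 40.6) of NF1 and 27.0% (17.4 to 38.6) of NF2, and these intervals, which cover counting error only, overlap. After thinning the shares were 37.5%, 34.3%, 33.8% and 24.1%. Mki67 had 179 and 171 CPM in AFs and 315 and 222 CPM in NFs, and Top2a 241 and 295 against 171 and 142 CPM, both uncalled and opposite in sign. In glycolysis 1 of 20 was called, the lactate dehydrogenase gene Ldha at 847 and 959 against 417 and 408 CPM (1.13 ± 0.18, adjusted p = 0.042), and in the glutathione list 1 of 21, Mgst1 at 521 and 486 against 177 and 146 CPM. None of 20 lipid genes was called by edgeR (5 at an unadjusted p under 0.05), and DESeq2 called 1, lower. The immediate early list had 20 of 20 fold changes above 0 and a median of 0.94, against a median of 0.0019 over all genes. AF values lay above NF values for 15 of the 20, against 23.1% of all genes. An unadjusted p under 0.05 was reached by 12, against 13.8%. Egr1, at 337 and 438 against 102 and 151 CPM, was the only one of the 20 called (1.62 ± 0.27, adjusted p = 0.043). Of 17 FB identity genes tested 1 was called higher and 1 lower, with 8 fold changes above 0, 9 below and a median of -0.14. Among them Ly6a, which encodes SCA1, had 32.1 and 76.8 CPM in AFs and 0.878 and 2.86 CPM in NFs. Thy1 had 80.5 and 40.3 against 202 and 419 CPM without being called (adjusted p = 0.067).

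Of 10 genes that the study itself discusses in FBs, Dcn, a gene of the well rule, and Egr1 were called, both higher in AFs. These were chosen by the study with these cells among its data and are no independent evidence of a direction. The chemokine gene Cxcl12 had 357 and 374 CPM in AFs and 201 and 140 CPM in NFs (1.10 ± 0.23, adjusted p = 0.087), and the fatty acid binding protein gene Fabp4 20.6 and 27.7 against 10.2 and 5.71 CPM. The laminin genes Lamc1 and Lama2 had 64.0 and 78.2 against 78.7 and 100.4 CPM and 10.1 and 20.2 against 12.9 and 45.3 CPM. Pgf had 9.90 and 9.40 against 9.07 and 6.12 CPM. Vim had 3029 and 4007 CPM in AFs and 6479 and 5401 CPM in NFs (-0.76 ± 0.20, adjusted p = 0.15), Eif5 680 and 667 against 988 and 854 CPM, and Rpl34 556 and 507 against 628 and 499 CPM.

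The same library held 4 further Types, AF0_1, AF0_2, NF0_1 and NF0_2, whose 0 is not explained in the sources used here. They were fitted with the first 4 in 1 model of 8 Types as a second contrast of adult against neonatal FBs. Markers of other cell types moved with this contrast. The 5 cardiomyocyte genes summed to 124 and 137 CPM in AF0 and 1223 and 1366 CPM in NF0 wells, the epicardial markers to 610.0 and 593 against 53.4 and 96.4 CPM, and the endothelial markers to 761.7 and 643.7 against 165 and 174 CPM. Of 10 epicardial and 10 endothelial genes tested 5 each passed higher in AF0, and 4 of the 5 cardiomyocyte genes passed lower. Their part in the values below was not tested. In this contrast 772 of 13917 genes passed an adjusted p of 0.05 (5.55%), 339 higher (2.44%) and 433 lower (3.11%) in AF0. All 81 genes higher in AFs were tested there, 68 had a positive difference, against 51.3% of all genes, and 41 of them passed, while 1 passed in the opposite direction. The interferon list had 14 of 31 passing higher and none lower with a median of 3.03, and the acute-phase list 9 of 12 with a median of 4.06. Lcn2 had 56.4 and 37.1 CPM in AF0 wells and 0.706 and 1.52 CPM in NF0 wells, and Cxcl5 286 and 545 against 9.65 and 13.1 CPM. The difference between the 2 contrasts passed an adjusted p of 0.05 in 124 genes (0.891%), among them 13 of the 81 higher and 6 of the 12 lower genes. No gene of the interferon or acute-phase list was among the 124. Ifitm3, which is in neither list, was among them, with a contrast larger in co-culture by 1.40. Mdk, at 328 and 247 CPM in co-cultured AFs, had only 12.8 and 12.9 CPM in AF0 wells and 33.7 and 19.4 CPM in NF0 wells. S100a4 reversed, with 2493 and 2688 CPM in AF0 and 1101 and 954 CPM in NF0 wells, and so did Csf1. AF0 wells also differed from the rest in Y-linked RNA. The 4 Y-linked genes summed to 2.37 and 3.54 CPM in AF0 wells and to 47.8 to 82.2 CPM in the other 6 Types, while Xist was present in all 8 (10.5 to 102 CPM). In co-culture Xist had 87.5 and 52.0 CPM in AF1 and AF2 and 32.9 and 10.5 CPM in NF1 and NF2, without being called. The part of sex-linked RNA in either contrast, or in the difference between them, was not tested.

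**Figure D4:**
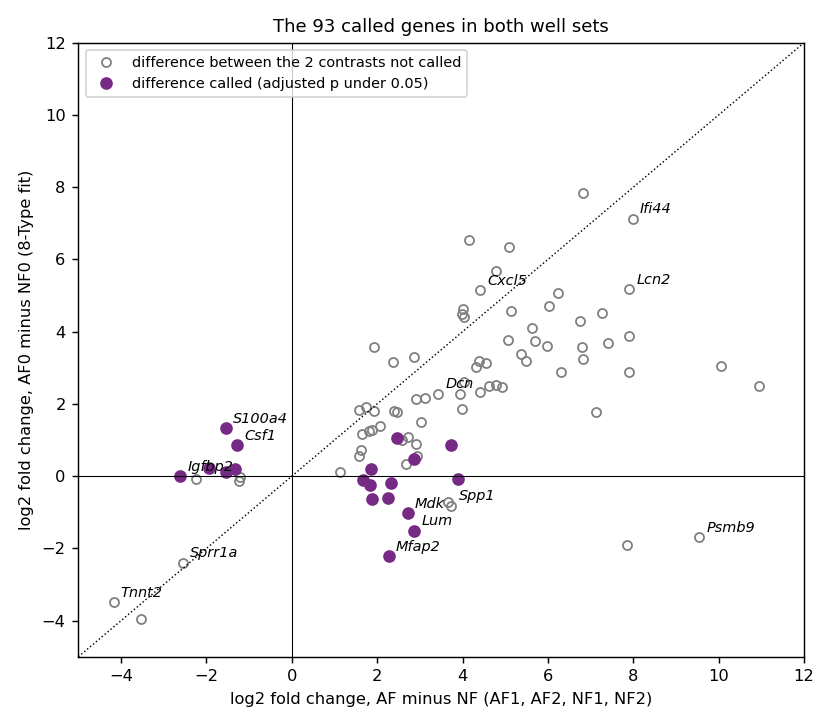
Log2 fold changes of the 93 called genes in AF against NF wells (x axis) and in AF0 against NF0 wells (y axis, fit of 8 Types), 1 point per gene, filled where the difference between the contrasts passed an adjusted p of 0.05, with a dotted line of equality. Of the 81 genes on the right 68 lie above 0 on the y axis. S100a4 and Csf1 lie in the upper left quadrant, and Mdk, Lum and Mfap2 in the lower right.

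Wells of the library labelled cardiomyocytes that met the same rule gave a further contrast in a separate library. Per the study's methods the cardiomyocytes of the co-cultures came from newborn hearts. The Types there may thus name the FBs plated with them, and the origin of the fibroblast-class wells was not tested. In that library the Types AFNCM1 to AFNCM3 and NFNCM1 to NFNCM3 left 98 and 46 wells. Cardiomyocyte gene sums were 2054 to 3115 CPM in all 6, so that cardiomyocyte RNA was high in both groups. Of 7524 genes tested 107 passed an adjusted p of 0.05 (1.42%), 88 of them higher in AFNCM wells. NFNCM3 held only 6 of these wells and 146957 UMIs. Of the 81 genes higher in AFs 64 were tested and all 64 were higher in AFNCM wells, against 52.8% of all tested genes, and 41 passed. Genes nearly absent from NFNCM wells could pass the expression filter here only through the AFNCM sums. For such genes the filter itself set the direction, so these counts are a description and no test. Of the 12 lower genes 11 were tested, 9 were lower and 3 passed, S100a4 (-2.36), Csf1 (-1.49) and Ahnak (-1.34). Tnnt2 and Myl2, at -0.60 and 0.75, did not pass. The interferon list had 17 of 23 passing higher with a median of 5.05, under the same limit of the filter. The 2 libraries shared 269 well barcodes. Whether any of these are the same cells was not tested.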

How the data were processed

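UMI counts per gene and well, as deposited by the authors, were used together with the deposited well report, which gives each well its Type. Per the study's methods, read pairs passed a barcode and UMI filter, adapter trimming and a contaminant screen, were aligned to mm10 with STAR (2.5.2b in the submitters' processing notes), and were assigned to Ensembl genes with featureCounts. Single live cells were chosen by imaging, and no doublet caller was run here. The use of strand by the counting step is not given in the sources used here, so overlapping and antisense genes cannot be told apart. Spike-in columns (79) and 34 mitochondrial genes were left out, and 1 well in the report had no counts. Symbols and positions came from GENCODE M21 on GRCm38, the assembly of mm10.

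Counts were summed per Type over the kept wells, since cells are not replicates. Genes with a UMI in fewer than 10 kept wells were dropped, then those failing filterByExpr (minimum count 10), and the sums were scaled by TMM and tested with edgeR 4.0.16 in R 4.3.3. CPM values of genes are UMI counts divided by the TMM-scaled library size, in the usual unit, and in the contrast with the 0 wells they come from that fit. CPM sums of cell type markers were instead divided by the plain UMI total of the kept wells, with no TMM factor. Alternatives used limma 3.58.1, DESeq2 1.42.0, other scalings, gene and well filters, wells thinned to 10000 UMIs, and each Type left out. The simulation drew 200 changed genes into counts with the means and totals of these Types. Genes named singly were up to 12 called genes in each direction, taken by size of change (non-overlapping values, mean CPM of at least 20, a UMI in at least 20 wells), called and then abundant list members, genes the study discusses, and sex-linked genes. The gene lists and the genes named were chosen with earlier results of these data known. The samples of bulk RNA were not used here.

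Samples with the same Type number did not deviate together (correlation of deviations 0.0091 over all tested genes and 0.082 over the 3181 with a mean of at least 50 CPM), so the main fit has no block. Each well's 95% intervals cover counting error only.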

Additional observations from a re-analysis of the deposited data

Results flagged for a closer look

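The difference between adult and neonatal wells was not the same in the co-culture Types and in the 0 Types (edgeR, term for the difference of the 2 contrasts, adjusted over 13917 genes) for 17 of the genes described. Values are the log2 difference of the contrasts, co-culture minus 0. The contrast was lower in co-culture for S100a4 (-2.88, adjusted p = 0.0015), Igfbp2 (-2.60), Asap1 (-2.16), Csf1 (-2.14, adjusted p = 0.011), Crim1 (-1.65) and Tns1 (-1.52). In S100a4 and Csf1 the sign changed, since both were higher in AF0 than in NF0 wells, by 1.33 and 0.86. For Igfbp2, Asap1, Crim1 and Tns1 the 0 contrast lay between -0.01 and 0.23 and did not pass.

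It was higher in co-culture for the matrix genes Mfap2 (4.48), Lum (4.37), Postn (3.58), Vcan (2.74), Cthrc1 (2.501) and Col1a1 (1.63), and for Mdk (3.74), Serpinf1 (2.88, a secreted serpin gene named after its values were seen), Id3 (1.44) and Ifitm3 (1.40). Lum, Postn and Col1a1 are genes of the rule that chose the wells, so that their values are a description and no test. Postn was far lower in AF0 wells, at 31.5 and 27.3 CPM, than in NF0 wells, at 836 and 664 CPM. Vcan had 57.6 and 42.9 CPM in AF0 wells and 130 and 128 CPM in NF0 wells, and 205 and 267 against 56.8 and 126 CPM in co-culture. The Y-linked Ddx3y differed by 5.78, with 0.474 and 0.799 CPM in AF0 wells. With 2 Types in each group no value could be set apart from its group.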

How the results depend on the processing

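The count of 93 called genes depended on the test, the genes tested and single Types. It was 602 with DESeq2 (60.0% higher in AFs), 38 with limma-voom (76.3%), 203 with a minimum mean of 20 CPM (75.4%), 259 in wells thinned to equal UMIs (64.9%) and 20 in wells with a fibroblast sum over 10 times the cardiomyocyte sum (100%), against 87.1% higher in the main comparison. Leaving out 1 Type gave 79 to 280 genes, with 280 without NF1 (53.9% higher) and 145 without NF2. A lone Type is then assumed to vary like the other age. Under the other scalings and filters, and with no marker rule (79 genes, chosen after seeing the data), the count stayed within 1.5 times. Library totals alone moved the median of all genes to 0.13. With the replicate number as a block 119 genes were called, 87 of them shared with the 93. Since the numbers do not pair the samples, this is no paired result.

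Of 1037 values of 52 called genes under these settings none changed sign, 887 kept their call and 150 lost it, 45 of these under the 10-fold marker margin, and 4 genes kept their call throughout. Among 40 genes that were not called, 68 of 797 values gained a call, 16 of them with DESeq2 and 11 without NF1, and 13 changed sign. Ccl2 became 0.090 with library totals only, 0.024 with the CPM minimum, 0.0054 with the study's well filter, 0.27 under the marker margin and 0.052 without wells led by other markers, and ranged from -0.13 to 0.053 (without NF1) with 1 Type left out. Rpl34 became 0.040 with library totals only and 0.027 under the marker margin, and ranged from -0.25 to 0.085 (without NF1). Under the margin Tnni3 became 0.59 and Acta2 0.043. With 1 Type left out Ddx3y ranged from -0.83 to 0.26 (without AF2) and Lama2 from -1.58 to 0.23 (without NF2). The cause was not tested. With 2 sums per age and 1 UMI in NF1 worth about 0.293 CPM, small differences of low genes were not detectable at this depth.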
